A study of Arabidopsis thaliana with 12 samples.

Results

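The genes described here encode proteins of the cytosolic ribosome of Arabidopsis thaliana, the thale cress, 58 loci of the 32833 listed. They were chosen by locus number from the large (60S) subunit, 32 loci, and the small (40S) subunit, 26 loci, because ribosomal protein genes were seen to rise in high light in these same libraries. All 58 had a mean normalised read count of at least 10 over the 12 libraries and were tested, as were 19309 loci in all. Leaves came from wild-type Col-0 plants 30 days old, raised on peat pellets at 23 °C and 50 µmol m-2 s-1 of light for 12 h a day. The 4 groups, of 3 libraries each, were untreated plants (control), plants under 600 µmol m-2 s-1 (high light), plants at 42 °C (heat), and plants given high light together with heat (the combination), each stress lasting 7 h. The labels do not state the light level of the heat group or the temperature of the high light group, and give no sign that replicate libraries hold different plants, so p-values measure the spread between libraries, which may be technical.

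The cytosolic ribosome translates the messenger RNAs made in the nucleus. Its 60S subunit joins amino acids and its 40S subunit reads the message, and a leaf cell spends much of its energy on making both. In Arabidopsis nearly every ribosomal protein is encoded by a small family of paralogs, so a family can keep supplying its protein while the contribution of each gene changes. Promoters of these genes are known for site II elements (TGGGCC or TGGGCT), which TCP transcription factors can bind, and for telo boxes, related to the plant telomere repeat.

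The 58 loci fall into families, of which 20 are represented by at least 2 members, and the coding sequences of paralogs in these families were between 68.2% (RPSAA and RPSAb) and 99.2% (PGY2 and RPL9B) identical. Reads of PGY2 and RPL9B may be split between these near-identical copies, so their separate values are uncertain. Names are those of the usual ribosomal protein families, and 29 of the 58 stand in the RefSeq annotation of TAIR10.1, while the names of the other 29 are not all given by their annotated product, which for some is only a superfamily.

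Site II letters stood in the promoter window, from 250 bases before to 50 bases after the annotated start, of 45 of the 58 members (77.6%), against 21.7% of 27443 windows of protein-coding genes. They were found in 30 of 32 windows of the 60S members and in 15 of 26 of the 40S members, and in 75.3% of the windows of 166 other cytosolic ribosomal protein loci. Telo box letters (AAACCCTA or AACCCTAA) stood in 26 of the 58 member windows (44.8%) against 7.67% of all windows, and 22 members (37.9%) held both kinds, against 2.62% of all windows. Both strands were searched and matches may overlap. A pair of letters often linked to heat shock factors, GAANNTTC or TTCNNGAA, was searched after the values had been seen and stood in 15.5% of member windows and 19.3% of all windows. A match is a description of the letters, not a bound site.

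The 250 bases upstream of 3 members are shown because these genes differ in the responses described below. RPL3A (chr1:16266303-16266552, plus strand) is the main RPL3 gene, BBC1 (chr3:18168701-18168950, minus strand) had the highest change of any 60S member when light was added to heat, and RPS10B (chr5:16610693-16610942, minus strand) rose in heat alone and did not pass when light was added to it. The bases are from RefSeq TAIR10.1, written 5′ to 3′ toward the gene, with site II and telo box letters in capitals. The last capitals of BBC1 begin a telo box match that runs past the start.
RPL3A: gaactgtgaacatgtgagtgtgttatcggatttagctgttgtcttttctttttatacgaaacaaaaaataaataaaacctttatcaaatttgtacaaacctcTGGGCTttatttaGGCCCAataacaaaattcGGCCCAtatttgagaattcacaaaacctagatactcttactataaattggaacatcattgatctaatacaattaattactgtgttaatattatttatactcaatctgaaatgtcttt
BBC1: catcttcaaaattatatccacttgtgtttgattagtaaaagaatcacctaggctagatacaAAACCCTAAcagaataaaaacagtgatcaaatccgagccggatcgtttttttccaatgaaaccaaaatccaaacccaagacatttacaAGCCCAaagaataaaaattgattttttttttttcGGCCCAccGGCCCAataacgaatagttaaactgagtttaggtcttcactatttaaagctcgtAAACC
RPS10B: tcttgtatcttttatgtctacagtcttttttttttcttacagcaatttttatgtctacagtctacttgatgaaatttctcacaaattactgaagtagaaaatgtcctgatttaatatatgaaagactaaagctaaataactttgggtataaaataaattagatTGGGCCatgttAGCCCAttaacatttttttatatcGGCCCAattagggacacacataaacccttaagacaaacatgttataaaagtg
RPL3A, BBC1 and RPS10B carried 3 site II matches each. Their whole windows held 0, 3 and 2 telo box matches in that order, overlapping ones counted. Both matches of RPS10B lie past the start and so outside the bases printed.

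Libraries held 29814116 to 36938786 recovered reads. Values are normalised read counts, that is reads divided by the size factor of the library, and a change is the difference in log2(normalised count + 1) from the fit, with its SE. The size factors were 0.535 to 0.605 in the combination and 1.05 to 1.53 elsewhere, so the scaling bears on every comparison that includes the combination. With library totals as the scaling, the median of all tested loci moved by -0.86 in the combination against heat, by -0.94 in the combination against control and by -0.89 in the combination against high light, and members are therefore read relative to that median. In the combination against heat, 57 of the 58 members lay above the median of all loci under the deposited, TMM and library-total scalings. By definition, as many of all loci lie above that median as below it. A change of scaling shifts members and all loci nearly alike, so the agreement of these scalings was fixed in advance. Of the defining markers, the 4 of leaf mesophyll (RBCS1A, RCA, CA1 and LHCA1) summed to 1070752 to 1234481 normalised counts per library in the combination, 461229 to 770919 in heat and at most 856103 elsewhere. These markers did not move alike. RCA had 436461 to 630763 in the combination and 87333 to 292435 elsewhere. RBCS1A had 316995 to 330587 in the combination, 193165 to 233218 in heat and 349514 to 593233 elsewhere. In the combination CA1 lay above control and LHCA1 overlapped control. From heat to the combination 2 of these 4 rose and 0 fell, with a median log2 change of 0.97 (limma), while under library totals 1 rose and 1 fell with a median of 0.10. Their part in the values of the members was not tested. Of 3 root markers, 2 were at 0 in every library and the last had a read in 1 control library. The 3 flower markers summed to 7.88 to 22.9 outside the combination and to 26.5 to 36.8 within it. In bulk leaves, fewer cells of a type and less RNA per cell cannot be told apart.

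Members were higher in high light than in control, the contrast by which they were chosen, so these values are a description with no test. The median log2 change against control was 1.12, from 0.46 for RPS15A to 2.64 for RPL3B, and the quartiles were 1.02 and 1.27. In all 58 members each high light library lay above each control library, which was so for 30.5% of all tested loci. The members together took 1.05% to 1.34% of the reads in control and 2.17% to 2.68% in high light. The 60S members had a median of 1.21 and the 40S members of 1.11.

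Adding high light to heat compares libraries that are not in the contrast by which the members were chosen, although earlier results of these data were known when the choice was made. Of the 58 members, 51 rose and 0 fell past an adjusted p of 0.05 (limma), where 27.9% of all tested loci rose and 27% fell. By edgeR 49 rose and 0 fell, by DESeq2 51 rose and 0 fell, and 0 had a lower value at an unadjusted limma p under 0.05. The median log2 change was 1.06 over the members and 0.00 over all tested loci. With library totals as the scaling 18 rose and 5 fell, while 8.17% of all loci then rose and 57.5% fell. Members took 1.07% to 1.14% of the reads in heat and 1.26% to 1.34% in the combination, so as a share of reads the difference is much smaller than on the deposited scale, although the libraries still do not overlap.

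**Figure D1:**
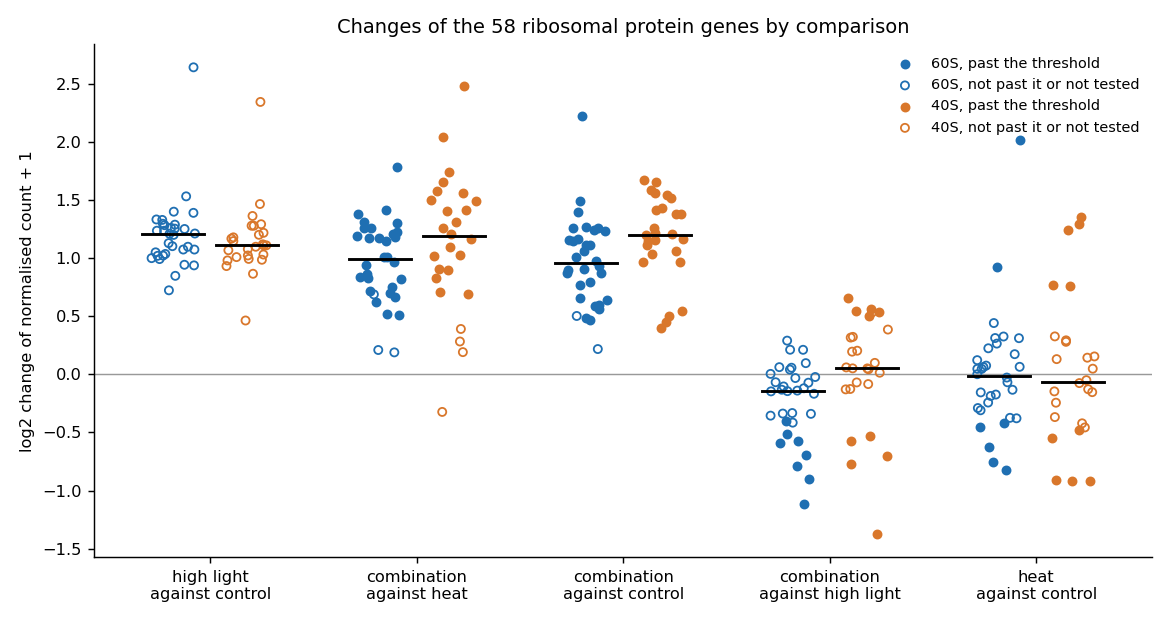
Log2 change of each member in 5 comparisons, with 60S members in blue, 40S members in orange and a black bar at the median of each subunit. Filled points passed an adjusted p of 0.05, and points of high light against control are open because that contrast chose the members. Nearly all points lie above 0 in the 3 comparisons on the left, with medians between 0.96 and 1.21, and they lie on either side of 0 in the comparisons that add heat. With library totals the points of the combination shift down with all loci.

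Among the 60S members, BBC1 (AT3G49010), which encodes RPL13, had the highest change from heat to the combination. Its normalised counts were 3989, 4504 and 6342 in heat against 15318, 19211 and 15939 in the combination, a change of 1.79 ± 0.21 (limma adjusted p = 6.22e-05). All combination libraries lay above all heat libraries. RPL10A (AT1G14320, SAC52), whose protein joins the 60S subunit late in its assembly, rose by 1.42 ± 0.18 (limma adjusted p = 8.66e-05), from 7168 ± 1426 to 18930 ± 662 (SD, n = 3). RPL24A (AT2G36620) rose by 1.38 ± 0.16 (limma adjusted p = 5.26e-05), and its paralog RPL24B (AT3G53020, STV1), known for its role in reinitiation of translation after upstream open reading frames, rose by 1.01 ± 0.14 (limma adjusted p = 0.000148).

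Among the 40S members, RPS10C (AT5G52650), a protein of the head of the small subunit, changed most. It had 2141, 1655 and 3261 normalised counts in heat against 10641, 17088 and 11166 in the combination, a change of 2.48 ± 0.25, or 5.6-fold (limma adjusted p = 3.54e-05). The lowest combination library lay above the highest heat library. RPS18A (AT1G22780, PFL), named for the pointed first leaves of its mutant, rose by 2.04 ± 0.22 (limma adjusted p = 4.12e-05), from 2003, 2545 and 3519 to 10332, 12668 and 9620. RPS6A (AT4G31700) rose by 1.75 ± 0.17 (limma adjusted p = 3.43e-05) and RPS6B (AT5G10360) by 1.502 ± 0.193 (limma adjusted p = 8.96e-05). RPS6 is the small-subunit protein phosphorylated by S6 kinase, downstream of the TOR growth kinase. Each of these calls was kept when any single library was left out.

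The 7 members that did not pass when light was added to heat were RPL3B, RPL36B and RPP0A of the 60S subunit and RPSAb, RPS3C, RPS10B and RPS27A of the 40S subunit. RPSAb (AT3G04770) was the only member with a negative estimate, -0.32 ± 0.26 (limma adjusted p = 0.311), and without combination library 1 it became -0.62 and passed (limma adjusted p = 0.0362). RPS3C (AT5G35530) had 0.19 ± 0.18, RPL36B (AT3G53740) 0.19 ± 0.18, RPL3B (AT1G61580) 0.21 ± 0.18 and RPS10B (AT5G41520) 0.28 ± 0.16. RPS27A (AT2G45710) had 0.39 ± 0.25 and RPP0A (AT2G40010), the least abundant member, 0.69 ± 0.33. RPL3B and RPS27A passed as higher without combination library 3 (0.43 and 0.64), and RPP0A without combination library 1 (0.89).

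Further members rose in the same comparison. RPL3A (AT1G43170), whose protein lies near the peptidyl transferase centre, rose by 1.23 ± 0.24 (limma adjusted p = 0.000939). RPP0B (AT3G09200), the more abundant of the RPP0 members, which encode the base of the ribosomal stalk, rose by 1.31 ± 0.17 (limma adjusted p = 1e-04). RPL10B (AT1G26910) rose by 1.21 ± 0.23 and RPL10C (AT1G66580) by 0.83 ± 0.15. RS27A (AT3G61110) rose by 1.21 ± 0.16 and RPS27D (AT5G47930) by 1.17 ± 0.16. With library totals as the scaling, RPL3A, RPL10B, RPL10C, RPL24B, RS27A and RPS27D no longer passed, the estimate of RPL10C turned to -0.045, and RPL3B, RPL36B, RPSAb, RPS3C and RPS10B passed as lower.

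In heat alone most members did not pass the test, and a minority moved in both directions. The comparison shares its control libraries with the contrast that chose the members. Of the 58, 7 rose, against 24.6% of all tested loci, and 10 fell, against 24.8% of all tested loci, with a median of -0.04 (limma). In this fit both counts are below the background share. With library totals 7 rose and 14 fell, beside 20.05% and 24.9% of all loci, so the fallen count was then near the share of all loci. Without heat library 1, 14 rose and 8 fell, and without heat library 3, 6 rose and 14 fell. The fallen count was 5 without control library 2 or without heat library 2, and 6 without control library 3. Shares of all loci with a library left out are not given here.

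RPL3B, the minor RPL3 gene, rose most. It had 626, 690 and 683 normalised counts in control and 2576, 2880 and 2656 in heat, a change of 2.02 ± 0.18, or 4.05-fold (limma adjusted p = 6.64e-06). All heat libraries lay above all control libraries by a wide margin. RPS3C, 1 of 3 genes here for a protein at the messenger entry channel, had 3518, 4108 and 3616 in control and 7431, 12370 and 9440 in heat, a rise of 1.35 ± 0.18 (limma adjusted p = 0.000103). RPSAb rose by 1.29 ± 0.26 (limma adjusted p = 0.00156) from a low level, 146, 233 and 166 in control to 376, 452 and 495 in heat. RPS10B rose by 1.24 ± 0.16 (limma adjusted p = 6.38e-05) and RPL36B by 0.93 ± 0.18 (limma adjusted p = 0.00116). RPS27A rose by 0.76 ± 0.25 (limma adjusted p = 0.0213), a call lost when any control library, heat library 2 or heat library 3 was left out.

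The 10 members that fell in heat did so by less than 1 on the log2 scale. RPS10C fell by 0.92 ± 0.25 (limma adjusted p = 0.00878), from 4054, 4505 and 4294 in control to 2141, 1655 and 3261 in heat. RPS21B (AT3G53890, named after its values were seen) fell by 0.91 ± 0.15, RPL24A fell by 0.83 ± 0.16 and RPL10A fell by 0.76 ± 0.18. BBC1 fell by 0.62 ± 0.21 (limma adjusted p = 0.0268) and RPL24B fell by 0.42 ± 0.14 (limma adjusted p = 0.0287). The call of BBC1 was lost without control library 2 or 3 or heat library 1 or 2, and that of RPL24B without any control library or heat library 2. RPS28, RPS28B, RPS11A and RPL7B made up the rest.

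The named members not past the threshold in heat varied in the sign of their estimates. RPL3A had 0.27 ± 0.24, RPL10C 0.33 ± 0.15, RPS6B 0.15 ± 0.19 and RPS27D 0.05 ± 0.16. RPS6A had -0.37 ± 0.17, RPP0B -0.38 ± 0.17, RPS18A -0.46 ± 0.22, RPL10B -0.31 ± 0.23, RPP0A -0.19 ± 0.33 and RS27A -0.15 ± 0.16. Without heat library 1, RPL3A (0.52) and RPL10C (0.43) passed as higher and RPL10B (-0.58) as lower. Without heat library 3, RPS18A (-0.67), RPS6A (-0.48) and RPP0B (-0.48) passed as lower.

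**Figure D2:**
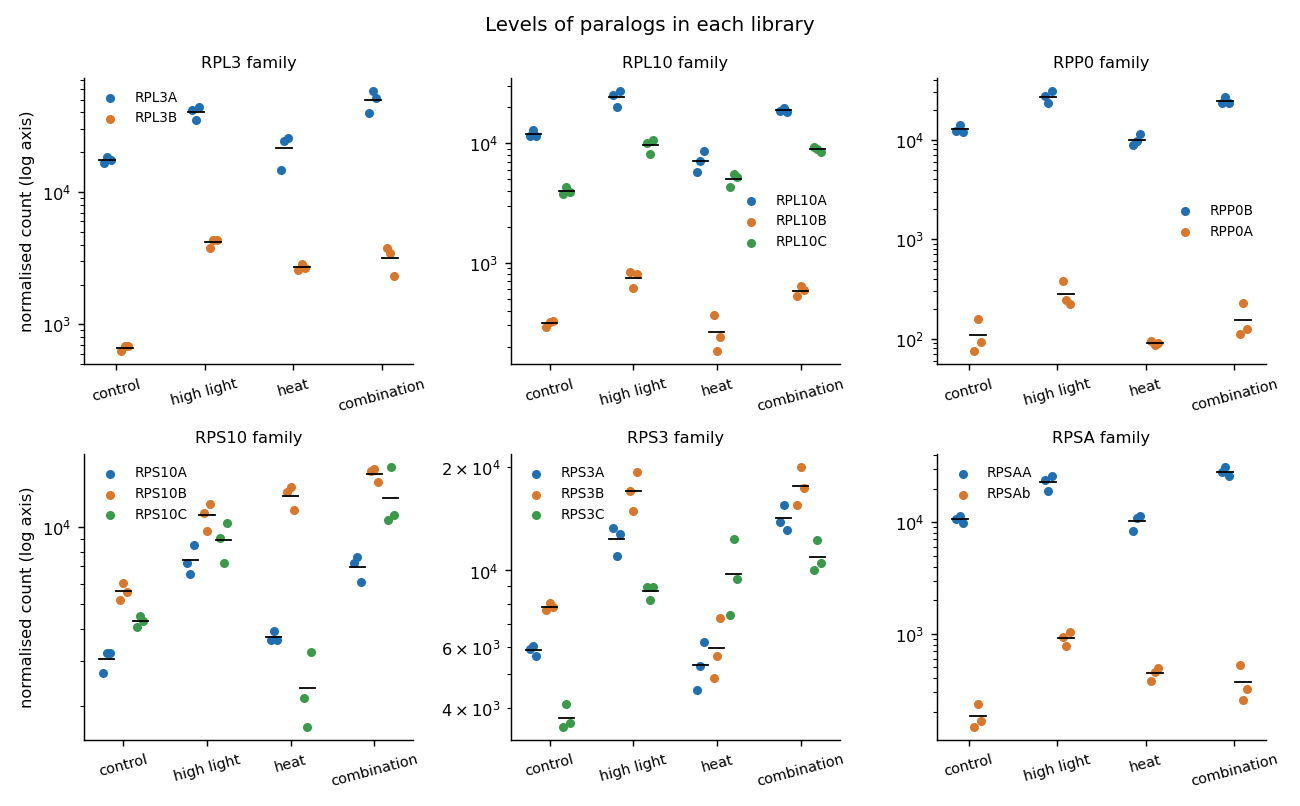
Normalised counts, on a log axis, of paralogs in 6 families, with 1 point per library and a bar at the mean of each group of 3. RPL3B, RPS3C, RPS10B and RPSAb stand higher in heat than in control, and RPS10C stands lower. RPP0A and RPSAb remain far below RPP0B and RPSAA in all 4 groups.

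Set side by side, the 10 members that fell in heat alone all rose from heat to the combination. Of the 7 that rose in heat alone, 1 rose further and the other 6 did not pass. These comparisons share the heat libraries, so their signs are not independent of each other. Of all 58 members 51 rose from heat to the combination, and the joint counts were not computed over all tested loci. They are therefore a listing of members and show no pattern particular to them. The group levels show the same members more directly. RPS10C averaged 4284 in control and 8850 under high light, but 2352 in heat and 12965 in heat with high light. RPL3B averaged 667 in control and 4176 under high light, and 2704 in heat and 3194 in heat with high light. For RPL3B all stressed libraries, from 2309 to 4378, lay above all control libraries, and its combination libraries overlapped those of heat and of high light.

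Against control, the combination had 56 members higher and 0 lower (limma), where 29.8% of all tested loci were higher and 29.7% lower. It shares the control libraries with the choice of members. RPL27aC (AT1G70600, named after its values were seen) at 0.22 ± 0.18 and RPP0A at 0.50 ± 0.33 did not pass. RPL3B again had the largest change, 2.23 ± 0.18 or 4.69-fold (limma adjusted p = 1.19e-06), and RPS6B had 1.66 ± 0.19. With library totals as the scaling 13 were higher and 6 lower, beside 9.46% and 62.2% of all loci. Under that scaling RPL10A, RPL10B, RPL24A, RPL24B and RPP0B turned to negative values.

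Against high light alone, the combination had 5 members higher, all of the 40S subunit, against 28.1% of all tested loci, and 13 lower, against 29.3% of all tested loci (limma). It shares the high light libraries with the choice of members. Among them were RPS18A (0.65 ± 0.22), RPS6B (0.55 ± 0.19), RPS10B (0.54 ± 0.16) and RPS15A (0.50 ± 0.16, named after its values were seen), and these 4 turned negative with library totals as the scaling, where RPS15A was at -0.40. The count of 5 became 3 without high light library 1 and 1 without high light library 2 or combination library 2. RPSAb was lowest at -1.38 ± 0.26 (limma adjusted p = 0.000726), with 939, 776 and 1033 normalised counts in high light and 526, 254 and 321 in the combination. RPL27aC followed at -1.11 ± 0.18 (limma adjusted p = 0.000194), and RPP0A had -0.90 ± 0.33 (limma adjusted p = 0.0325), a call lost without high light library 1 or combination library 1 or 3.

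The subunits summed over their members had close levels in control and heat and higher levels in the high light groups. In the 60S members the sum was 195545 ± 15866 normalised counts for control and 443812 ± 58814 for high light, against 196407 ± 28900 for heat and 392702 ± 33280 for the combination (SD over 3 libraries). The 40S members summed to 124576 ± 7052, 268852 ± 35851, 131185 ± 17185 and 305327 ± 33347 in the same order. From heat to the combination the 60S sum was 2.00-fold and the 40S sum 2.33-fold higher, with libraries that did not overlap (exact two-sided permutation test, p = 0.1 for each, the smallest that 3 against 3 libraries allow). With library totals as the scaling these ratios were 1.1 and 1.28.

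The ratio of the 60S sum to the 40S sum does not depend on the scaling of a library. It was 1.54, 1.61 and 1.55 for control and 1.65 for each high light library, and 1.46, 1.54 and 1.48 for heat. The combination libraries had 1.28, 1.25 and 1.33. The combination libraries lay below all others, and differed from heat by -0.21 (exact two-sided permutation test, p = 0.1, the smallest possible). The same ratio over cytosolic ribosomal protein genes outside the 58, 90 of the 60S and 60 of the 40S subunit, was 1.33, 1.26 and 1.31 in the combination and 1.45 to 1.65 in the other 9 libraries. Leaving the RPS10 family out of the 58 gave 1.43 to 1.505 in the combination and 1.70 to 1.84 elsewhere. These are ratios of reads, which depend on transcript length and on which loci are summed, and do not count subunits.

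**Figure D3:**
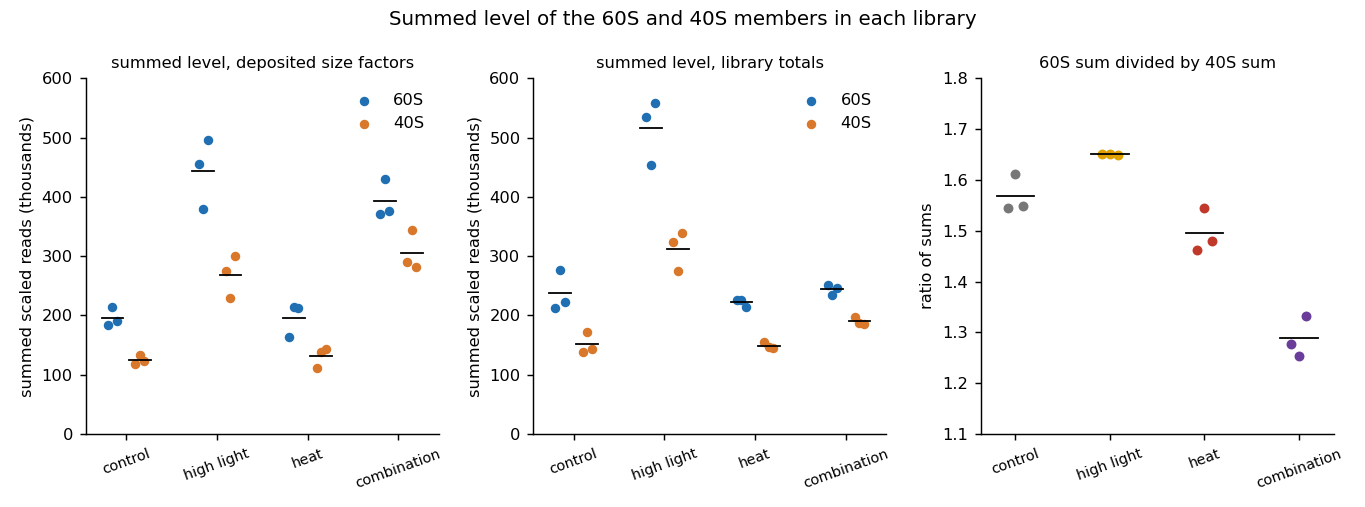
Summed reads of the 60S and 40S members per library, divided by 1000, with the deposited size factors (left) and with library totals (middle), and the ratio of the sums (right, axis from 1.1 to 1.8), with 1 point per library and a bar at the mean. The right panel shows the combination libraries at 1.25 to 1.33, below all other libraries.

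Per kilobase of exon, the levels of members in control ranged over 2 orders of magnitude around a median of 4946 normalised counts per kb. RPS8A (AT5G20290, named after its values were seen) stood highest, at 12607 ± 1077 per kb, then RPL3A at 10026 ± 526, RPL10A at 9474 ± 694 and RPP0B at 8764 ± 818. Neighbours from RPL3A to RPP0B in that order overlapped within their SDs. At the lower end stood RPL3B at 449 ± 23.9, RPL10B at 299 ± 16.9, RPSAb at 123 ± 31.1 and RPP0A at 73 ± 29 per kb. In high light RPL3B reached 2810 ± 232 and RPSAb 622 ± 88.5 per kb, still below the median of 10904 over the members.

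Shares within a family compare paralogs inside each library and are likewise free of the scaling. The share of the summed member reads of a family was computed for 30 paralogs in 20 families, and heated libraries (heat and combination) were compared with unheated ones within each light level by an exact two-sided permutation test over 400 arrangements, whose smallest p is 0.005. This test was chosen after the data had been seen. After Benjamini-Hochberg adjustment over the 30 shares, 14 shares in 10 families differed, 4 of them by more than 10 percentage points. The shares of a family sum to its whole, so several shares of the same family are not independent results. RPS3C and RPS3B, of the same family, are both among these 4.

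RPS21C (AT5G27700) gained most, and was named, like RPL7C and RPL18, after its values were seen. Its share of the RPS21 pair was 42.6% ± 1.35 in control and 63.5% ± 6.11 in heat, and it went from 39.5% ± 1.28 under high light to 53.6% ± 2.85 with heat added (SD, n = 3 each). The heated libraries were higher at both light levels, by 17.5 percentage points on average (exact permutation, adjusted p = 0.0136). RPS3C held 21.4% ± 1.02 of the RPS3 reads in control and 46.2% ± 6.16 in heat, but only 25.6% ± 0.0568 in the combination against 22.9% ± 1.14 in high light (exact permutation, adjusted p = 0.0136). RPS3B (AT3G53870), of the same family, had a mean change of -10 percentage points (exact permutation, adjusted p = 0.0136). RPS10B held 43.3% ± 0.662 in control and 68.4% ± 4.85 in heat, and 44.9% ± 4.04 in the combination against 40.6% ± 0.866 in high light, where the libraries overlapped (exact permutation, adjusted p = 0.0321).

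Smaller shifts with the same sign at both light levels were seen in other families. RPL10C rose from 24.6% to 40.6% of the RPL10 reads in heat and from 27.9% to 31.3% under high light, while RPL10A fell from 73.5% to 57.2% and from 69.9% to 66.6% (exact permutation, adjusted p = 0.0136 for each). RPS6B, RPL7C, RPL18 and RPL24B gained 9.06, 8.86, 8.11 and 4.75 percentage points within their families (exact permutation, adjusted p = 0.0136 for each). RPL3B gained within its family in heat, from 3.68% to 11.6%, with all heat libraries above all control libraries, but not under high light, at 9.48% in high light and 6.23% in the combination, and did not pass (exact permutation, adjusted p = 0.369). RPP0A stayed between 0.613% and 1.04% of the summed reads of the RPP0 members in the group means.

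**Figure D4:**
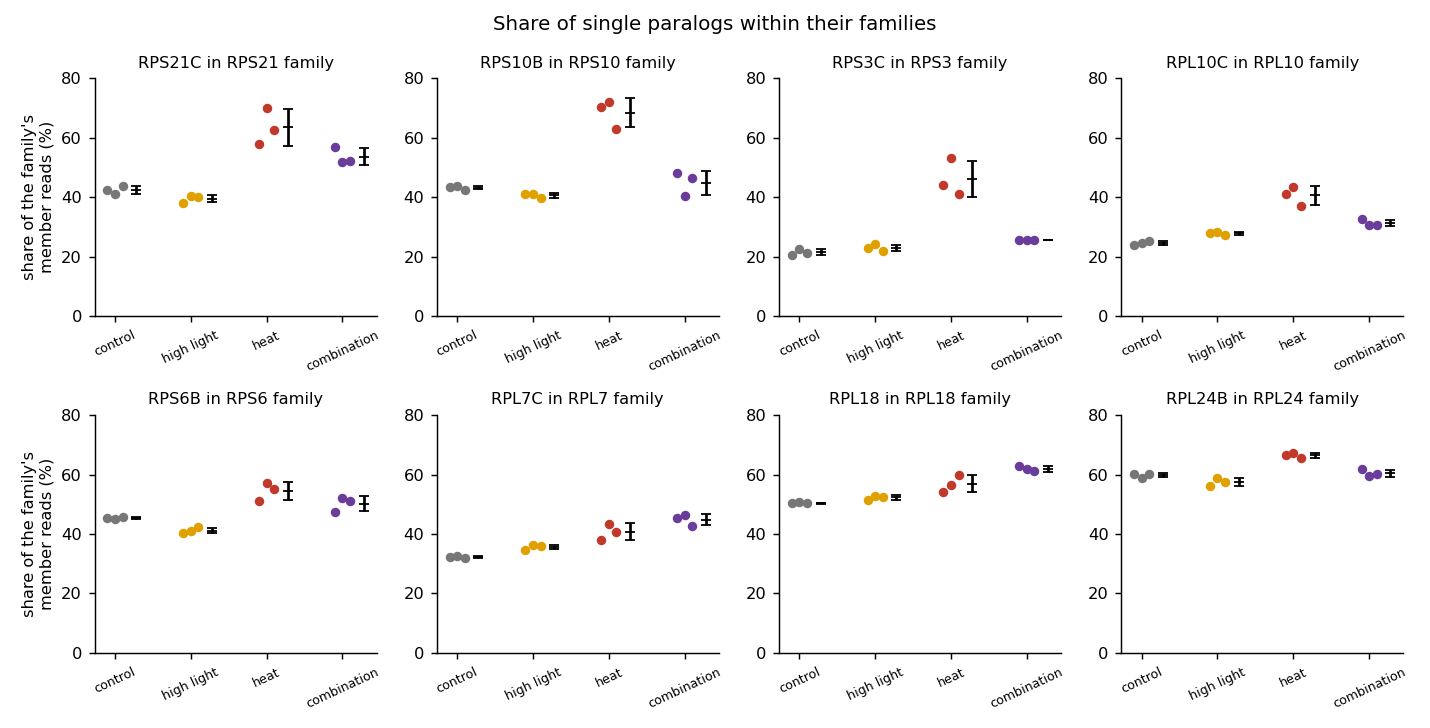
Share of 8 paralogs in the summed reads of their family, in percent, with 1 point per library and mean ± SD beside the points. Heat libraries stand above control libraries for all 8 paralogs, by the widest margins for RPS10B, RPS3C and RPS21C. The combination mean stands nearer to that of high light than to that of heat for RPS10B, RPS3C, RPL10C and RPL24B. It stands nearer to that of heat for the others.

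The other 166 cytosolic ribosomal protein loci, 153 of them tested, are given here beside the members. The counts of this and the following lists stand against 27.9% of all tested loci higher and 27% lower from heat to the combination, and 24.6% higher and 24.8% lower in heat alone. With library totals these shares of all loci were 8.17% and 57.5% from heat to the combination, and 20.05% and 24.9% in heat alone. On the deposited scale, 128 of the 153 were higher and 1 lower from heat to the combination with a median of 0.99. In heat alone 19 were higher and 32 lower with a median of -0.10. With library totals 40 were higher and 20 lower from heat to the combination, and without heat library 1 and combination library 2, left out after seeing the data, 34 were higher and 29 lower in heat alone. RACK1C (AT3G18130) rose by 2.07 ± 0.27 from heat to the combination (limma adjusted p = 9.04e-05), and RPL22A (AT1G02830) by 3.49 ± 0.92 (limma adjusted p = 0.00666) from a mean of only 10 normalised counts. RPL31B (AT4G26230) rose by 1.58 ± 0.20 in heat alone (limma adjusted p = 6.48e-05) and RPS9C (AT5G39850) by 1.41 ± 0.24 (limma adjusted p = 0.000457).

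On the deposited scale, most of the listed genes that build the ribosome rose in each stress against control. Of 41 ribosome biogenesis loci, 38 rose and 1 fell in high light with a median of 1.67 (limma), where 18.1% of all tested loci rose and 16.6% fell. In heat alone 30 rose and 0 fell with a median of 1.00. In the combination against control 30 rose and 0 fell with a median of 0.99, beside 29.8% and 29.7% of all loci. This last count was not obtained with library totals, under which the median of all loci moved by -0.94 in that comparison. From heat to the combination 7 rose and 7 fell (17.1% each, below the share of all loci), with a median of -0.03 (limma). BOP1 (AT2G40360), needed for processing of ribosomal RNA in other eukaryotes such as mouse and yeast, averaged 1416 in control and 5386 under high light, and 6802 in heat and 2742 in heat with high light. It rose by 2.28 ± 0.23 in heat (limma adjusted p = 1.54e-05) and fell by 1.34 ± 0.23 from heat to the combination (limma adjusted p = 0.000437). PRH75 (AT5G62190), a nuclear RNA helicase, rose by 1.78 ± 0.20 in heat (limma adjusted p = 2.82e-05), and FIB2 (AT4G25630), a fibrillarin that methylates ribosomal RNA, rose by 1.00 ± 0.29 from heat to the combination (limma adjusted p = 0.0112). With library totals 0 rose and 32 fell from heat to the combination and FIB2 no longer passed, while 29 rose and 0 fell in heat alone. Without heat library 1 and combination library 2, 2 rose and 5 fell from heat to the combination.

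Of 41 cytosolic translation factors, 31 rose and 4 fell from heat to the combination with a median of 0.76, and 13 rose (31.7%) and 2 fell in heat alone (limma). EEF1B-ALPHA1 (AT5G12110), of the elongation factor 1B complex, averaged 86 ± 8.07 normalised counts in control and 1050 ± 747 under high light, and 7880 ± 1747 in heat and 33721 ± 16028 in heat with high light. It rose by 6.48 ± 0.53 in heat (limma adjusted p = 4.77e-06) and by 2.01 ± 0.53 from heat to the combination (limma adjusted p = 0.00673). EIF5A-3 (AT1G69410) rose by 2.41 ± 0.28 in heat (limma adjusted p = 3.6e-05), and EIFISO4G2 (AT2G24050), a scaffold of translation initiation, by 1.57 ± 0.33 from heat to the combination (limma adjusted p = 0.00171). With library totals 5 factors rose and 10 fell from heat to the combination, with a median of -0.11 against -0.86 over all loci. The second call of EEF1B-ALPHA1 was lost under that scaling and without heat library 1 and combination library 2, where 20 factors rose and 2 fell in heat alone.

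Plastid ribosomal proteins, encoded in the nucleus, fell in heat alone and rose when light was added. Of 37 tested, 0 rose and 21 fell in heat alone with a median of -0.60, and 32 rose and 0 fell from heat to the combination with a median of 0.95 (limma). PSRP3 (AT1G68590) averaged 10698 in control and 9848 under high light, and 3494 in heat and 11814 in heat with high light. It fell by 1.61 ± 0.16 in heat (limma adjusted p = 1.59e-05) and rose by 1.75 ± 0.16 from heat to the combination (limma adjusted p = 3.43e-05). PSRP1 (AT5G24490) fell by 1.99 ± 0.23 in heat, and PRPL35 (AT2G24090) rose by 1.71 ± 0.23 from heat to the combination. With library totals 8 rose and 5 fell from heat to the combination.

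Of 14 TOR and SnRK1 signalling loci, 7 rose and 2 fell from heat to the combination with a median of 0.30, and 4 rose and 1 fell in heat alone (limma). The share that rose in heat, 28.6%, is near that of all tested loci. S6K1 (AT3G08730), the kinase of RPS6, rose by 1.91 ± 0.36 from heat to the combination (limma adjusted p = 0.000882), from 3528 ± 2363 to 11446 ± 1964, and E2FA (AT2G36010), a cell cycle transcription factor, by 1.46 ± 0.24 (limma adjusted p = 0.00032). RAPTOR1A (AT5G01770), a partner of the TOR kinase, rose by 1.62 ± 0.20 in heat (limma adjusted p = 6.45e-05) and S6K2 (AT3G08720) by 1.15 ± 0.36 (limma adjusted p = 0.0175). With library totals 1 rose and 9 fell from heat to the combination, near the 8.17% and 57.5% of all loci, with a median of -0.57. E2FA no longer passed under that scaling. Without heat library 1 and combination library 2, 3 rose and 2 fell there.

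**Figure D5:**
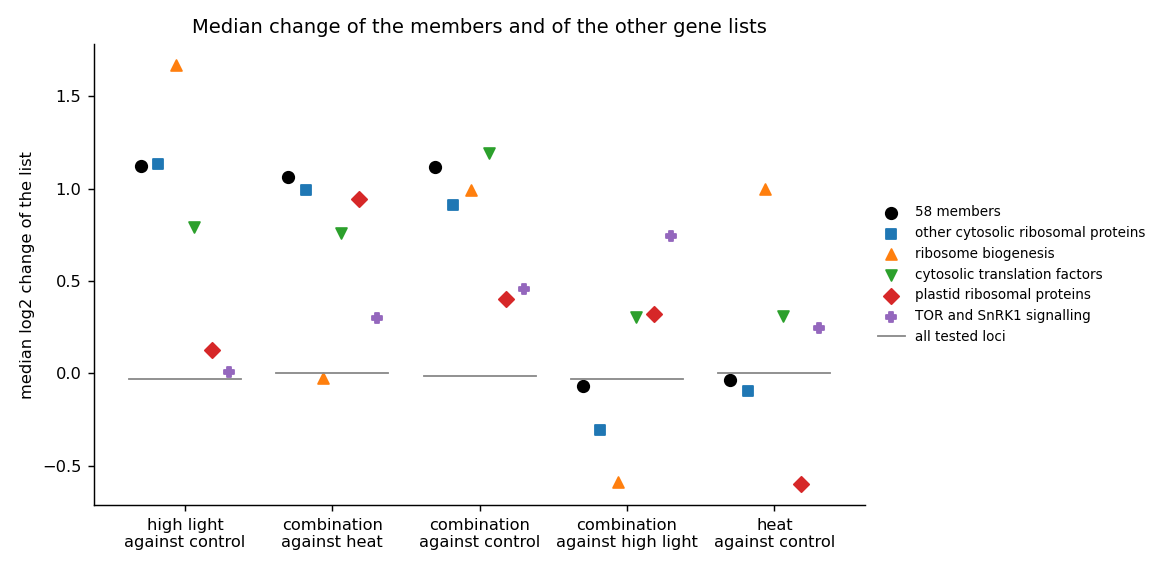
Median log2 change of the 58 members, of 5 other gene lists and of all tested loci (grey line) in 5 comparisons. The other cytosolic ribosomal proteins lie beside the members in high light against control (1.13 and 1.12) and below them in the combination against high light (-0.31 and -0.07), while the ribosome biogenesis list lies near 1 in heat against control and near 0 in the combination against heat. With library totals all lists shift down with all loci in the comparisons of the combination, and the medians of the translation factors and of the signalling list in the combination against heat become negative.

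Markers of dividing cells, in which ribosomes are made in large numbers, moved along with part of this pattern. All 4 (CYCB1;1, CYCB1;2, KNOLLE and CDKB2;2) fell in heat alone and rose from heat to the combination (limma), the second for only 2 of the 4 with library totals. Their summed normalised counts ranged from 1174 to 1574 for control and from 1088 to 1163 for high light, against 342 to 401 for heat and 974 to 1454 for the combination, and 0 of the 4 passed in high light against control, where all members were higher. Of 3 guard cell markers 2 fell in heat and 2 fell from heat to the combination. Of the 2 phloem markers 1 rose in heat and 1 fell from heat to the combination. The part of these cells in the values of the members was not tested.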

How the data were processed

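Poly(A)-selected leaf RNA of 12 libraries was sequenced, per the labels' protocols. Per the submitters' processing notes, FastQC 0.11.7, STAR 2.4.0.1, DESeq2 1.20.0 and the TAIR10 build were used. The counting tool, the strand setting and the treatment of reads shared by paralogs are not given in the sources used here. The table deposited by the authors holds normalised counts, a signal in which every read count was divided by the size factor of its library. Every non-zero value (100%, within 0.001) was a whole multiple of a step per library, so reads were recovered.

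Loci with a mean of at least 10 were fitted as log2(value + 1) in limma 3.58.1 (limma-trend, R 4.3.3) over all 12 libraries, with 1 mean per group, and two-sided p-values were Benjamini-Hochberg adjusted over 19309 loci at 0.05. No set of genes was tested as a set. Tests of the recovered reads in edgeR 4.0.16 and in DESeq2 1.42.0 were alternatives, as were pseudocounts, filters, scalings, a replicate block, fits of the compared groups and each library left out. The fit was tested on simulated data in which few loci changed, up or down at random. Many more loci were called in the real comparisons, so the simulation does not test the scaling of the combination.

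The members and gene lists were chosen with earlier results of these data known. Named are, per subunit, the 3 highest and 2 lowest changes in the combination against heat, up to 5 called members opposite to most, 15 members named always (some of which are not reported here), and from each other list the 2 largest called changes in 2 comparisons; others were named after their values were seen. Same-numbered libraries deviated together between control and high light (r = 0.157 to 0.307) and between high light and heat (0.147 to 0.152). In the 4 tested comparisons r was at most 0.107, reached between control and the combination, where all 6 libraries correlated best with their own number. The replicate block left the high light median at 1.12, which was fixed in advance. Each group holds the same replicate numbers, so the block can change SEs and p-values but not estimates. Exon lengths, promoters and coding sequences came from RefSeq TAIR10.1 with its own annotation (Biopython 1.88), since the deposited table holds no coordinates. Figures were drawn with matplotlib 3.10.9.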

Additional observations from a re-analysis of the deposited data

Results flagged for a closer look

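RPS10C and RPSAb stood out because heat moved all their libraries in opposite directions at the 2 light levels. RPS10C was lower in heat than in control (log2 change -0.92) and higher in the combination than in high light (0.53, which did not pass, limma adjusted p = 0.0847), and RPSAb was higher in heat than in control (1.29) and lower in the combination than in high light (-1.38). The shares of RPL5B, named after its values were seen, and RPSAb within their families did the same. The RPL5B share differed by 3.44 percentage points between heat and control and by -2.81 between the combination and high light, and the RPSAb share by 2.49 and -2.55. These differences between light levels were not tested, because the difference contains the contrast by which the members were chosen, and the 2 values for a gene were picked out of 58 members and 30 shares. The second value of RPS10C became -0.37 with library totals as the scaling, and the shares do not depend on the scaling.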

How the results depend on the processing

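All members passed the filter on low values, and RPP0A, the least abundant, had the largest SE in the combination against heat (0.33). With library totals as the scaling, 18 members rose and 5 fell in the combination against heat, beside 8.17% and 57.5% of all loci. In the combination against control 13 rose and 6 fell, beside 9.46% and 62.2% of all loci. In the combination against high light 0 rose and 54 fell, beside 10.2% and 60.9% of all loci. The ratios of summed levels were 1.1 (60S) and 1.28 (40S) under that scaling. Under it RPL10C turned to -0.045 in the combination against heat. RPL10A (-0.29), RPL10B (-0.053), RPL24A (-0.39), RPL24B (-0.36) and RPP0B (-0.017) turned in the combination against control, and RPS18A (-0.25), RPS10B (-0.36) and RPS6B (-0.35) in the combination against high light. These turns come with the shift of all loci given above. EdgeR called 3 members higher in the combination against high light in place of 5, and leaving out heat library 1 and combination library 2, chosen after seeing the data, gave 3 there and 14 higher in heat against control; the cause was not tested. The same 2 libraries left out gave 46 members higher in the combination against heat, 53 in the combination against control and 17 paralog shares.

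Leaving out each library in turn gave 48 to 52 higher and 0 to 1 lower in the combination against heat, 6 to 14 higher and 5 to 14 lower in heat against control, 49 to 56 higher and 0 lower in the combination against control, and 1 to 6 higher and 9 to 13 lower in the combination against high light. The median in high light against control was 1.04 to 1.24, the ratios of sums were 1.84 to 2.1 (60S) and 2.17 to 2.44 (40S), and 13 to 16 paralog shares differed. For 21 named members in 4 comparisons, 971 of 1008 values with a library left out kept their call, as did 869 of 924 under other settings. A kept call has the same side of the threshold and, if called, the same sign. Where the library left out belonged to a group not compared, the estimate was unchanged, so many of the 1008 could hardly change. Between the groups of the 4 tested comparisons, 1 of 12 same-numbered correlations of deviations passed 0.1. Yet all 6 libraries of control and the combination correlated best with their own number, a hint of pairing from the data and not the design. The main fit did not use the replicate numbers. With the replicate block 51 members rose in the combination against heat and 7 rose and 9 fell in heat against control, and with the block 55 rose in the combination against control and 5 rose and 12 fell against high light, where RPL24B lost its call (limma adjusted p = 0.0517).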
